A study of Mus musculus with 12 samples.

Results

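The mitochondrial solute carriers of the Slc25 family were described in the triceps brachii muscle of 12 mice. The family members were the rows with an Slc25a symbol and a number, leaving out Slc25a11, Slc25a12, Slc25a13 and Slc25a20, which belong to other shuttles. The table of normalized read counts held 31 such carriers among 10187 genes, out of 34 rows with a family symbol. Of the 31 carriers, 23 had a mean of at least 10 normalized reads over the 12 mice and were tested, and 8 lay below that minimum.

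All mice were male C57/BL6 animals, with 3 mice in each of 4 groups. The wild-type groups were IW (inactive) and AW (active), and the myostatin-reduced groups were IM (inactive) and AM (active). Wild-type mice had a normal Mstn gene, and in myostatin-reduced mice exon 3 of Mstn was flanked by loxP sites for removal by Cre recombinase. Every mouse, the wild-type controls included, ate chow with 0.025% tamoxifen for 6 weeks in total to activate Cre. The promoter that drives Cre was not given in the sources used here. At 6 months of age the active mice moved to single cages with a running wheel for 12 weeks, so running and single housing cannot be told apart. The genotypes were balanced for how much the sampled mice ran.

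Slc25 carriers span the inner membrane of the mitochondrion, with few exceptions, and exchange solutes between its matrix and the cytosol. Muscle contraction spends cytosolic ATP, and the adenine nucleotide and phosphate carriers return ADP and phosphate to ATP synthase and send ATP out. Other members move amino acids, coenzymes, nucleotides, carboxylates, glutathione or iron, and several have no settled substrate.

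Estimated depth lay between 9024043 and 12184789 reads, and 3 reads corresponded to 0.231 to 0.316 normalized reads. Mstn read 79.7 to 138 in wild-type and 8.70 to 21.6 in myostatin-reduced mice, with a log2 change of -2.66 (limma, adjusted p = 1.29e-06). The table held 6 of 7 skeletal muscle markers, and their summed value was 109782 to 181223. Myh7, the slow myosin heavy chain, differed widely between mice of a group, from 1.29 to 376 in IW and from 2.73 to 393 in AM. P-values measure the spread between mice, and in whole muscle fewer cells of a type and less RNA per cell cannot be told apart.

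Slc25a4, the muscle form of the ADP/ATP carrier, was by far the most abundant member. Its mean level per transcript length was 2150 normalized reads per kilobase over the 12 mice, which was 83.2% of the summed level of the 31 carriers. Slc25a3, the phosphate carrier, followed with 183 normalized reads per kilobase and 7.09%. Among the 31 carriers, the next levels per kilobase were 31.6 for Slc25a39, 20.5 for the iron importer Slc25a28, 17.1 for Slc25a46 and 15.4 for Slc25a16. Genes without an Slc25a symbol, such as Ucp2, Ucp3 and Mcart1, were not part of this ranking. Slc25a5, the ADP/ATP carrier of growing cells, stood at 13.3 per kilobase, and Slc25a24 was lowest at 1.32. The summed normalized counts of the 31 carriers, most of them from Slc25a4, were 5209 to 5522 in IW, 4622 to 4940.3 in IM, 5860 to 6293 in AW and 5583 to 6082 in AM. Those of IM were the lowest and did not overlap with the other groups, whereas AW and AM overlapped. Reads of Slc25a5 are uncertain, because near-identical copies of this gene could have taken some of them in the counting.

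**Figure D1:**
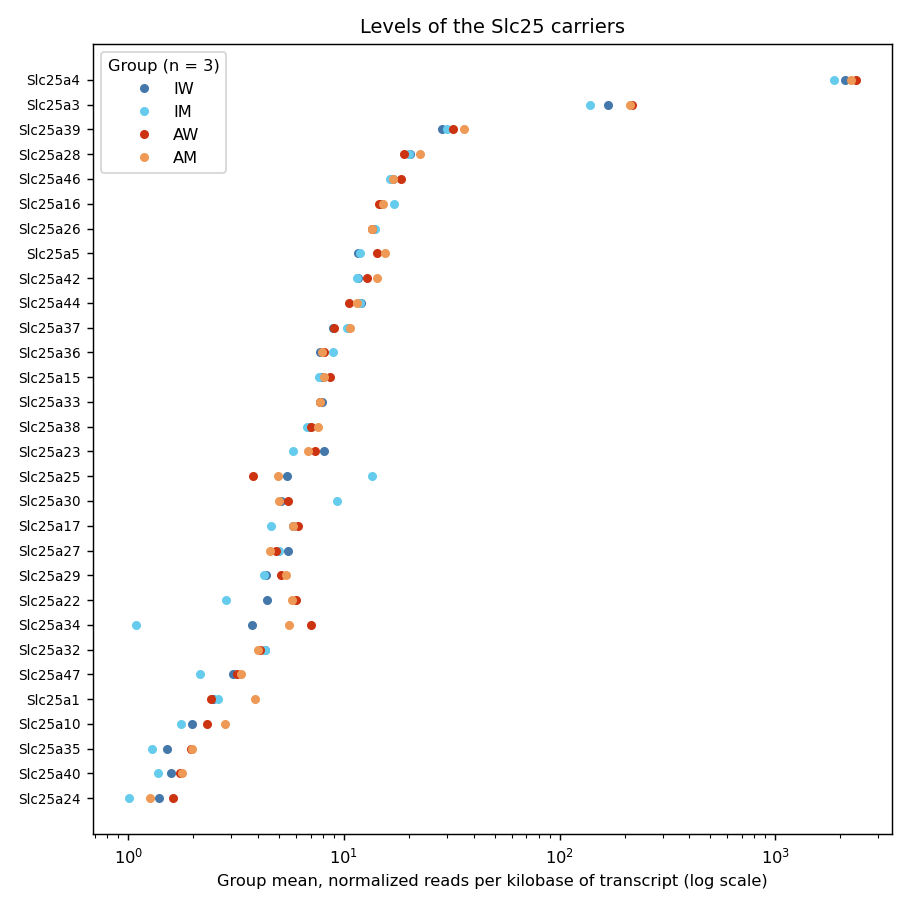
Group means (n = 3) of 30 carriers in normalized reads per kilobase of the longest transcript, on a log axis, ordered by their mean over all mice. Slc25a4 and Slc25a3, with means of 2150 and 183 over all mice, stand apart from the other carriers, whose means over all mice are 31.6 or less. The IM group of Slc25a34 lies left of its other groups.

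The promoters of the 4 carriers called for activity are shown because these carriers were higher together in the active mice. Each window holds the 250 bases before the RefSeq start site on the gene's strand, in build GRCm38.p6. Capitals mark matches to the motifs searched. The windows were chr8:46211063-46211312 for Slc25a4, chr10:91123968-91124217 for Slc25a3, chr11:102407518-102407767 for Slc25a39 and chr4:141623835-141624084 for Slc25a34, all on the minus strand.
Slc25a4: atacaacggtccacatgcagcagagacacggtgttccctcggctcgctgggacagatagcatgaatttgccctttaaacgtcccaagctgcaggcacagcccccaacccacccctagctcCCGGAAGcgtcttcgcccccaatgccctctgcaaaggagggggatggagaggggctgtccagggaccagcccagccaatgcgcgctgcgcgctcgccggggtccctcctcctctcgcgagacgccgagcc
Slc25a3: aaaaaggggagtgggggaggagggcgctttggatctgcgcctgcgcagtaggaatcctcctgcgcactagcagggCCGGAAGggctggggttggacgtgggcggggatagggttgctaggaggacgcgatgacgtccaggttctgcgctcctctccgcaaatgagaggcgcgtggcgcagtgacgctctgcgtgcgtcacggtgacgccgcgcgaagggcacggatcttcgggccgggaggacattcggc
Slc25a39: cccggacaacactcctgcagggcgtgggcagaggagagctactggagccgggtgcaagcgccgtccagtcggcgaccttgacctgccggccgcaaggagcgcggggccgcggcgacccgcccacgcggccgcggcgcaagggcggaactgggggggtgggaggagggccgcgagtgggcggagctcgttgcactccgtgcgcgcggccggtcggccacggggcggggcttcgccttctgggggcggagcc
Slc25a34: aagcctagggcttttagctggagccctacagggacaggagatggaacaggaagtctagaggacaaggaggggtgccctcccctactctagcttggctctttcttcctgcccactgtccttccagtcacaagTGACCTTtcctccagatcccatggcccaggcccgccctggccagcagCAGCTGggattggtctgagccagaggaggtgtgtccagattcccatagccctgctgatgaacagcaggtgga

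The patterns were searched on both strands, and 23 of the 31 carriers matched the promoter table by symbol, with 29 windows. The ETS core CCGGAAG was present at bases -130 to -124 from the start of Slc25a4 and at -175 to -169 from that of Slc25a3. It stood in 4 of the 29 carrier windows, the others being of Slc25a17 and Slc25a38, and in 6.91% of all 32851 windows. The nuclear receptor half-site AAGGTCA matched 1 of the 29 carrier windows, that of Slc25a34, on the opposite strand at -119 to -113, and was in 4.08% of all windows. The E-box CAGCTG matched Slc25a34 at -72 to -67 and also Slc25a24, or 2 of the 29 carrier windows, against 13% of all windows. Neither the NRF1 pattern GCGCATGCGC (0.782% of windows) nor the MEF2 site (0.508%) matched a carrier window. The matches shown did not overlap each other. GC content was 64.8% for Slc25a4, 66.4% for Slc25a3, 77.2% for Slc25a39 and 58.4% for Slc25a34. A match describes these letters only.

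The contrast of active with inactive mice asked which carriers differed after wheel running. Slc25a3, Slc25a4, Slc25a39 and Slc25a34 were over-expressed in active mice, and no tested carrier was under-expressed. These 4 were 17.4% of the 23 tested carriers, near the 14.5% of all tested genes that were called in either direction (limma on log2(normalized reads + 1), Benjamini-Hochberg adjusted p under 0.05). Of all tested genes, 7.99% were called higher. The change was positive in 14 carriers and negative in 9, and its median was 0.03 on the log2 scale against -0.02 over all tested genes. An unadjusted p under 0.05 was reached by 9 carriers (39.1%), against 30.2% of all tested genes.

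**Figure D2:**
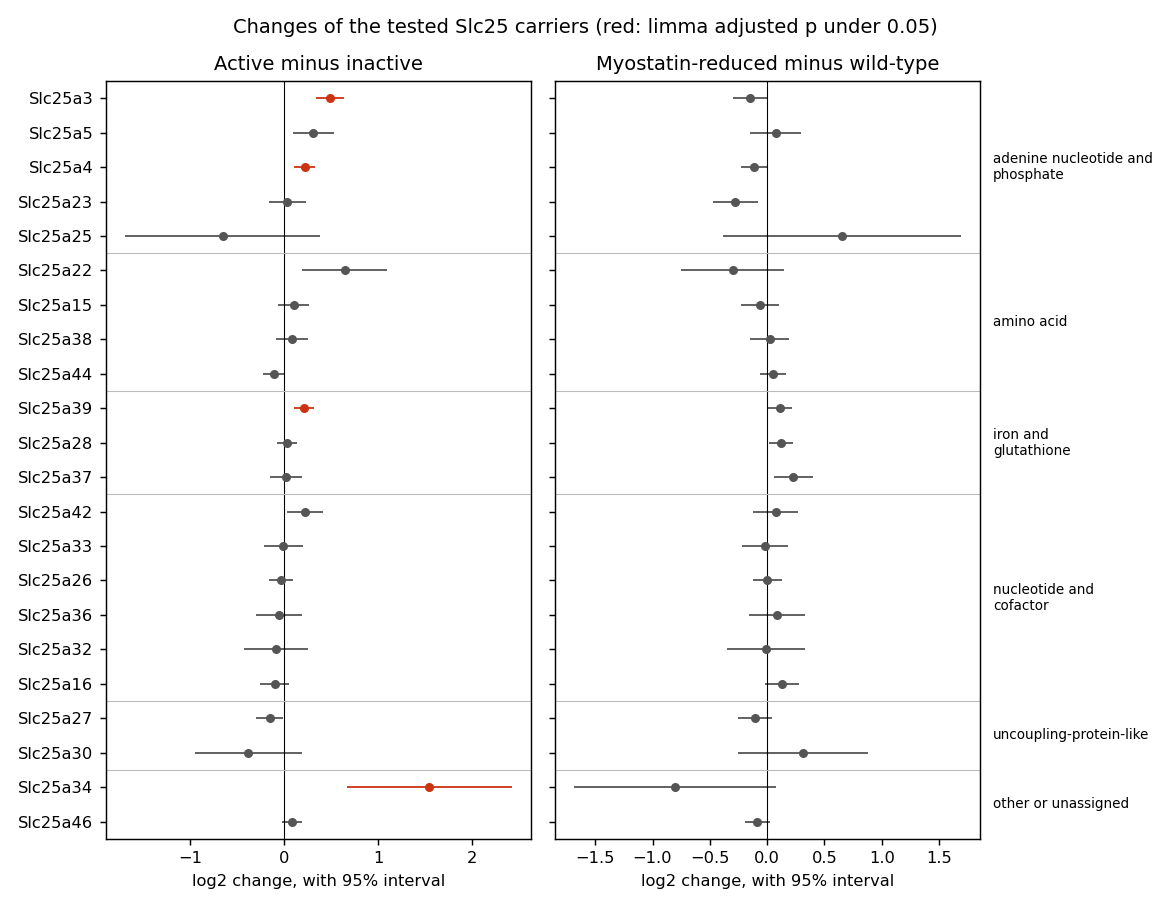
Log2 change of 22 tested carriers with its 95% interval for active minus inactive mice (left) and myostatin-reduced minus wild-type mice (right), by role, with limma calls in red. The 4 carriers called for activity lie right of 0, from 0.21 for Slc25a39 to 1.54 for Slc25a34, and none was called for genotype.

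Among adenine nucleotide and phosphate carriers, 2 of 5 tested members were called, both higher in active mice. Slc25a3 (chromosome 10, 90579319 to 90586804 in NCBIM37, minus strand) imports the phosphate used by ATP synthase. It read 724, 611 and 698 in IW, 568, 547 and 558 in IM, 747, 896 and 970.5 in AW, and 816, 908 and 846 in AM. Every active mouse was above every inactive mouse, a separation seen in this direction in 3.09% of all tested genes and in no other tested carrier. The log2 change was 0.49 (SE 0.0677, 95% interval 0.34 to 0.63, limma adjusted p = 0.00179). Mean counts of active mice were 1.29 times those of inactive mice among wild-type and 1.54 times among myostatin-reduced mice.

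Slc25a4 (chromosome 8, 47292151 to 47296638 in NCBIM37, minus strand) exchanges matrix ATP for cytosolic ADP. It read 4149, 3970.2 and 4002 in IW, 3712, 3669 and 3466 in IM, 4468, 4550 and 4665 in AW, and 4091, 4357 and 4573 in AM. Active and inactive mice overlapped only through AM mouse 1, which was below IW mouse 1, and they did not overlap within either genotype. The log2 change was 0.22 (SE 0.0519, limma adjusted p = 0.0162), which is smaller than that of Slc25a3, but the difference between these genes was not tested. Without AW mouse 3 the adjusted p was 0.0505.

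Slc25a5 read 13.1, 15.8 and 14.4 in IW, 16.1, 15.7 and 12.2 in IM, 14.0, 18.9 and 19.8 in AW, and 16.9, 21.1 and 19.5 in AM. AW mouse 1 stood among the inactive mice, whereas the AM mice lay above the IM mice. Its log2 change of 0.31 (95% interval 0.09 to 0.53) missed the threshold, with a limma adjusted p of 0.0563, and it passed without AW mouse 1 (0.012) or AM mouse 1 (0.0372). Among the calcium-regulated carriers that exchange ATP-Mg for phosphate, Slc25a23 changed by 0.03 (adjusted p = 0.824). Slc25a25, of the same kind, had the largest relative spread of all 31 carriers, with a coefficient of variation of 95.7% over the mice. Its counts ran from 7.72 to 89.9 within IM alone, and from 6.84 to 32.7 over the other groups, so its change of -0.66 had an interval of -1.69 to 0.38. Exons of Slc25a25 and Slc25a23 overlap genes on the opposite strand, Naif1 in the case of Slc25a25, so some of their reads are uncertain. Slc25a24, the third of this kind, was below the minimum, with 4.85, 5.53 and 3.86 in IW, 2.64, 4.18 and 3.58 in IM, 5.63, 5.81 and 5.16 in AW, and 3.44, 5.08 and 4.42 in AM.

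**Figure D3:**
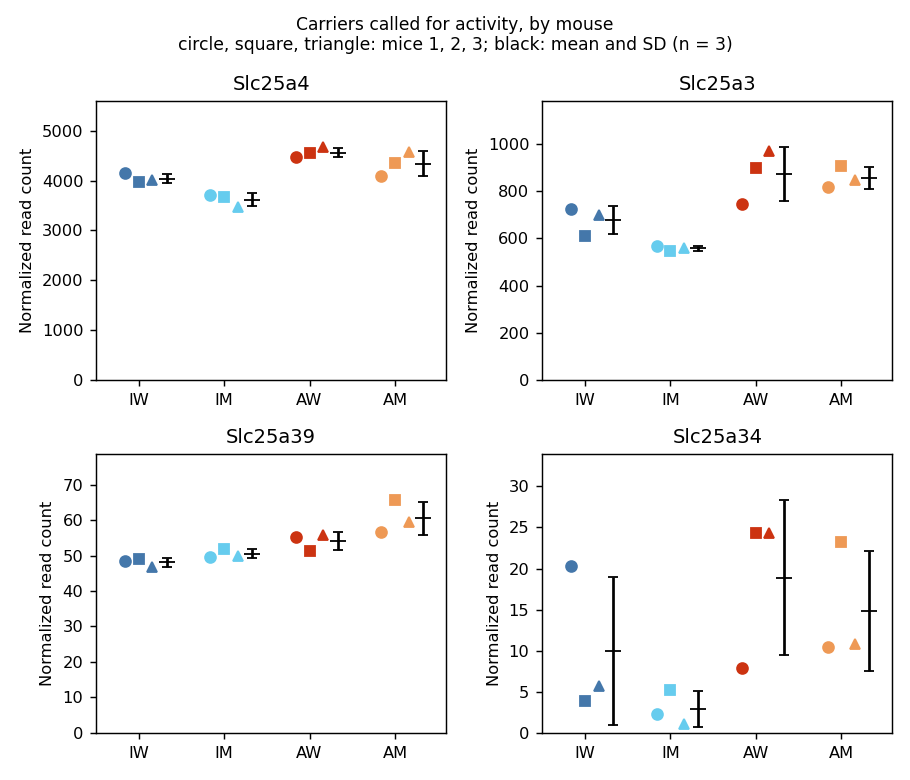
Normalized read counts of the 4 carriers called for activity in each mouse (circle, square and triangle for mice 1, 2 and 3), with the group mean and SD (n = 3) in black. All active mice lie above all inactive mice for Slc25a3, whereas for Slc25a34 IW mouse 1 at 20.3 lies above 3 of the active mice.

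In the iron and glutathione group, 1 of 3 tested carriers was called. Slc25a39, which carries glutathione into mitochondria (chromosome 11, 102264299 to 102269260 in NCBIM37, minus strand), read 48.5, 49.0 and 46.7 in IW and 49.5, 51.9 and 49.98 in IM. In active mice it read 55.1, 51.2 and 55.9 in AW and 56.5, 65.6 and 59.4 in AM. Only AW mouse 2 fell inside the range of the inactive mice, where it was passed by IM mouse 2. The log2 change was 0.21 (SE 0.0485, limma adjusted p = 0.0138), and it stayed called with any 1 mouse left out (adjusted p up to 0.0451). The iron importers Slc25a28 and Slc25a37 changed by 0.03 (adjusted p = 0.703) and 0.02 (adjusted p = 0.87). Slc25a40, a relative of Slc25a39, lay below the minimum, at 4.31, 4.52 and 4.38 in IW, 3.58, 4.09 and 3.77 in IM, 4.50, 4.98 and 4.92 in AW, and 5.12, 4.31 and 5.29 in AM.

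None of the 4 tested amino acid carriers was called. Slc25a22, a glutamate carrier, read 17.7, 10.98 and 14.5 in IW, 8.75, 12.1 and 6.98 in IM, 11.8, 28.4 and 18.3 in AW, and 15.2, 25.7 and 15.4 in AM. Its active and inactive mice overlapped, and the change of 0.64 (95% interval 0.19 to 1.09) had a limma adjusted p of 0.0563. It passed the threshold without AW mouse 1 (adjusted p = 0.0119), AM mouse 1 (0.0471) or IW mouse 1 (0.0482). Slc25a44, which carries branched-chain amino acids and was the most abundant of the group per kilobase, read 42.1, 42.3 and 45.0 in IW, 42.9, 42.6 and 41.9 in IM, 41.6, 36.0 and 35.9 in AW, and 39.6, 40.4 and 43.9 in AM. It was lower in every AW than in every IW mouse, but its change over both genotypes was -0.11 (adjusted p = 0.163). The ornithine carrier Slc25a15 spanned 23.5 to 32.2 over all mice and changed by 0.10 (adjusted p = 0.405). The glycine carrier Slc25a38 spanned 11.02 to 14.4 and changed by 0.09 (adjusted p = 0.492).

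The 7 tested carriers of nucleotides and cofactors had changes from -0.10 to 0.22, none of them called. Slc25a42, which imports coenzyme A, had the highest value (0.22, adjusted p = 0.111), and its AM mice, at 48.0 to 57.8, lay above its IM mice, at 38.1 to 47.2. Slc25a16, linked to coenzyme A as well, had the lowest value and the highest level of the group per kilobase. It read 46.6, 51.0 and 42.7 in IW, 53.9, 50.3 and 57.3 in IM, 49.6, 45.1 and 42.3 in AW, and 51.2, 41.5 and 50.7 in AM, so active and inactive mice overlapped (adjusted p = 0.346), although every IM count lay above every AW count. Slc25a32, a folate carrier with the lowest level of the group per kilobase, read 13.1, 16.1 and 8.77 in IW, 12.0, 15.3 and 10.8 in IM, 12.3, 13.5 and 10.2 in AW, and 16.0, 9.32 and 10.1 in AM. The S-adenosylmethionine carrier Slc25a26 was the steadiest of all 31 carriers, with a coefficient of variation of 5.58% and counts of 23.1 to 28.7. Reads of Slc25a26 and of Lrig1, a gene on the opposite strand with overlapping exons, cannot be told apart without strand. The pyrimidine nucleotide carriers Slc25a33 and Slc25a36 changed by -0.01 and -0.06, with counts of 12.0 to 17.6 and 26.0 to 41.4, and Slc25a33 has an opposite-strand overlap as well.

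Of the uncoupling-protein-like carriers, Slc25a27 read 15.3, 14.2 and 14.8 in IW, 13.6, 14.3 and 12.4 in IM, 11.7, 12.9 and 14.4 in AW, and 12.7, 12.0 and 11.7 in AM. Its change of -0.16 reached an unadjusted p of 0.0388 and an adjusted p of 0.141. Slc25a30 read 5.21, 10.8 and 10.1 in IW, 20.7, 17.1 and 9.74 in IM, 11.8, 5.81 and 10.5 in AW, and 13.1, 4.62 and 7.88 in AM. The highest values of Slc25a30, 20.7 and 17.1, were in IM, and its change of -0.38 (95% interval -0.95 to 0.19) was not called.

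Slc25a34, whose substrate is not settled (chromosome 4, 141174739 to 141179736 in NCBIM37, minus strand), had the largest change of the called carriers. It read 20.3, 3.87 and 5.74 in IW, 2.32, 5.27 and 1.1 in IM, 7.96, 24.4 and 24.3 in AW, and 10.4, 23.3 and 10.8 in AM. The lowest value rested on an estimated 12 reads. Apart from IW mouse 1, every inactive mouse was below every active mouse. The log2 change was 1.54 (SE 0.405, 95% interval 0.66 to 2.42, limma adjusted p = 0.0251). The call held in 5 of 12 fits with 1 mouse left out, and was lost without IW mouse 2 or 3, IM mouse 1 or 3, AW mouse 2 or 3, or AM mouse 2 (adjusted p 0.0553 to 0.0705). Slc25a46, an outer-membrane member linked to mitochondrial shape, read 74.1, 76.7 and 71.4 in IW, 71.4, 70.0 and 72.0 in IM, 73.0, 86.8 and 80.8 in AW, and 75.3, 69.4 and 76.8 in AM, with a change of 0.08 (adjusted p = 0.296). Its exons overlap a protein-coding gene on the opposite strand, so its reads are uncertain.

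Leaving out AW mouse 1 raised the number of carriers called for activity from 4 to 7, and leaving out AW mouse 3 lowered it to 2, Slc25a3 and Slc25a39. The share of all tested genes called moved the same way, from 14.5% to 20.5% without AW mouse 1 and to 7.62% without AW mouse 3. Equalizing the summed counts of the samples moved the median change of all genes from -0.02 to 0.08 and the share of higher among all called genes from 55.1% to 90.3%. It called 8 carriers, all higher, and 21% of all tested genes, against 14.5% in the main fit. Under that scaling the sign of the change differed in 5 carriers, namely Slc25a16, Slc25a26, Slc25a32, Slc25a33 and Slc25a36. Some markers of other cells and of fast fibres moved with activity too, whereas none of 2 tested macrophage and 3 tested Schwann cell markers was called. Of 7 tested endothelial markers 6 were called higher, with summed values of 250 to 263 in IM, 277 to 357 in IW, 282 to 483 in AW and 327 to 537 in AM, and none of them was at 0. Of 8 adipocyte markers, 5 were in the table and 2 were tested. Fabp4 was called higher, and Cfd was not called (0.31, limma adjusted p = 0.526). The summed values were 105 to 178 in inactive and 135 to 230 in active mice. Most of each sum came from Fabp4, at 75.8 to 107 in inactive and 109 to 177 in active mice. The untested Adipoq, Plin1 and Cidec went the other way, with lower means in AW than in IW and in AM than in IM. Of 10 fast-fibre markers, all tested, Myh1 was called higher and Myh4, Atp2a1 and Actn3 lower, and the summed values were 187083 to 218535 in IW, 230059 to 239842 in IM, 156636 to 192765 in AW and 164178 to 210479 in AM. The part of these markers in the carrier changes was not tested.

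The 8 carriers below the minimum all had positive activity changes in a fit of all 10187 genes with no minimum. The median change of all genes was -0.0019 in this fit, against -0.02 with the minimum, and the signs of other low genes were not counted. In that fit 10.7% of genes were called for activity, and 1 of the 8 carriers, Slc25a35, was among them (0.42, SE 0.086, limma adjusted p = 0.00935). Slc25a35 read 5.48, 5.44 and 5.64 in IW, 4.43, 4.73 and 4.96 in IM, 6.06, 8.40 and 6.98 in AW, and 6.89, 7.63 and 7.12 in AM, with every active mouse above every inactive mouse. The exons of Slc25a35 overlap those of Rangrf on the opposite strand, so its reads are uncertain. Slc25a47, a carrier known from liver, had 4.67, 4.59 and 5.22 normalized reads in IW, 3.79, 2.71 and 3.66 in IM, 5.28, 4.67 and 5.22 in AW, and 4.52, 5.60 and 5.58 in AM. Its IM mice lay below those of the other groups, and it changed by 0.28 with activity (limma adjusted p = 0.0799). The citrate carrier Slc25a1 read 1.89, 6.64 and 3.86 in IW, 3.79, 3.46 and 5.88 in IM, 4.07, 5.60 and 2.54 in AW, and 7.56, 6.93 and 4.90 in AM. For the dicarboxylate carrier Slc25a10 the counts were 3.80, 4.70 and 3.42 in IW, 4.50, 1.98 and 4.20 in IM, 3.53, 5.26 and 5.20 in AW, and 5.46, 6.87 and 4.71 in AM. Active and inactive mice overlapped for both genes, although the AM counts of Slc25a10 lay above all inactive counts, and neither was called for activity. Slc25a10 overlaps a transcript on the opposite strand. Slc25a17, which serves peroxisomes, and the basic amino acid carrier Slc25a29 had counts of 6.98 to 11.5 and 6.85 to 12.7 over all mice.

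The contrast of myostatin-reduced with wild-type mice called none of the 23 carriers, against 5.78% of all tested genes (limma). An unadjusted p under 0.05 was reached by 7 carriers (30.4%) and by 22.5% of all tested genes.

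Slc25a37, an iron importer called mitoferrin-1, had a genotype change of 0.23 (adjusted p = 0.111), with 36.3 to 38.6 in IW, 40.5 to 46.0 in IM, 33.4 to 45.6 in AW and 42.0 to 49.2 in AM. Slc25a23 changed by -0.28 (adjusted p = 0.0999). It read 23.8 to 30.1 in IW, 19.0 to 19.9 in IM, 19.5 to 27.8 in AW and 20.5 to 25.1 in AM, and its 3 IM values lay within 1 normalized read of each other. AW mouse 1 was the lowest of its group for Slc25a23 and the highest for Slc25a37, and without this mouse both genes were called. In that fit 7.99% of all tested genes were called for genotype, against 5.78% with all mice. Slc25a3 changed by -0.15 (adjusted p = 0.221) and Slc25a4 by -0.12 (adjusted p = 0.208).

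**Figure D4:**
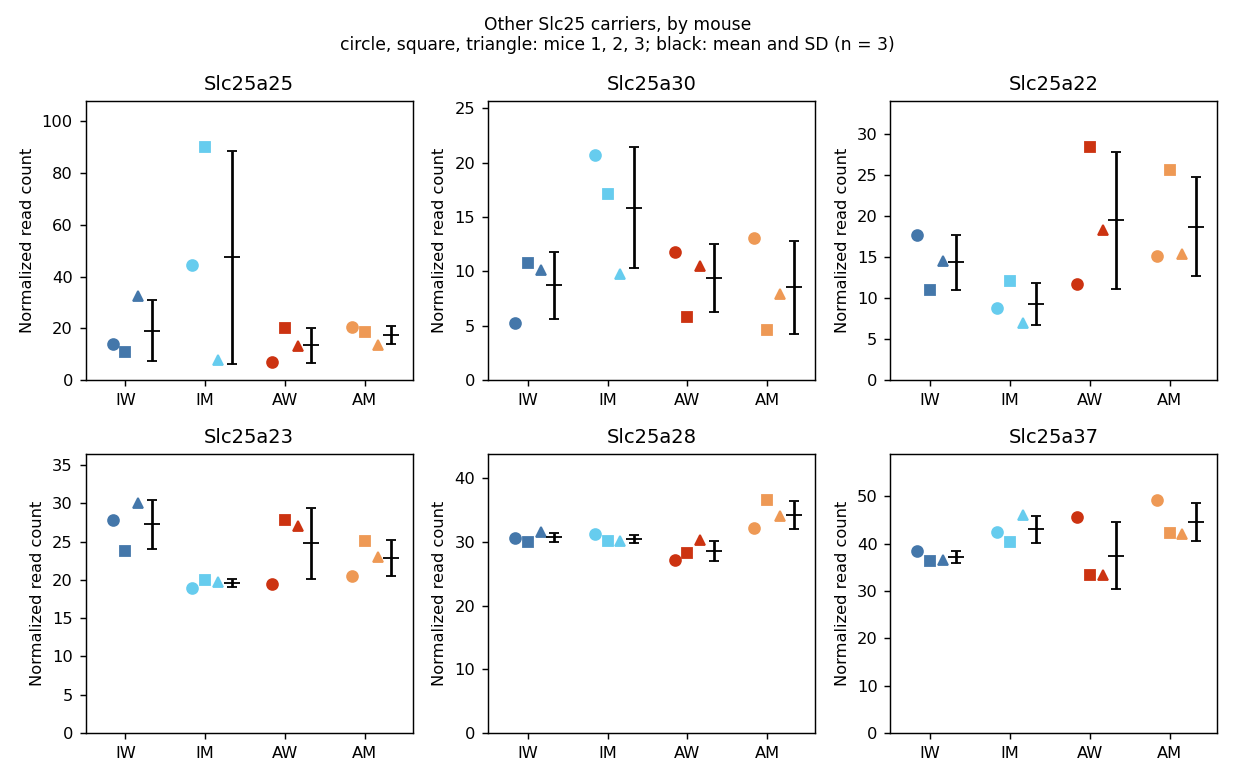
Normalized read counts in each mouse (circle, square and triangle for mice 1, 2 and 3) for 6 carriers that were not called for activity or genotype, with the group mean and SD (n = 3) in black. Slc25a25 spans 7.72 to 89.9 within IM, the IM mice lie close together for Slc25a23, and the AM mice lie highest for Slc25a28.

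Whether the activity change differed between genotypes was tested by the interaction. It was called in none of the 23 carriers and in 0% of all tested genes (limma), and 1 carrier had an unadjusted p under 0.05, against 4.1% of all tested genes. That carrier was Slc25a28, mitoferrin-2, with an interaction of 0.26 and an adjusted p of 0.89. It read 30.6, 30.0 and 31.5 in IW, 31.2, 30.1 and 30.1 in IM, 27.2, 28.3 and 30.3 in AW, and 32.2, 36.6 and 34.0 in AM. The AM mice were above all others, which spanned 27.2 to 31.5.

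Within wild-type mice, activity called none of the carriers and 0.0276% of all tested genes, with 4 carriers at an unadjusted p under 0.05 against 14.7% of all tested genes (limma). Slc25a3 came nearest (0.36, adjusted p = 0.116), and it was called without AW mouse 1. Within myostatin-reduced mice, 4 carriers were called higher in AM than in IM, or 17.4% against 7.84% of all tested genes, or 5.31% called higher. They were Slc25a3 (0.62, adjusted p = 0.00825), Slc25a39 (0.25, 0.0409), Slc25a34 (2.07, 0.0451) and Slc25a4 (0.26, 0.0477). With 1 mouse left out, Slc25a3 was called every time, whereas the number called fell to 1 or 2 without any of the 3 IW or 3 IM mice, AW mouse 3 or AM mouse 2 or 3. Counts did not overlap between AM and IM in 9 carriers, all higher in AM, and between AW and IW in 4, of which 3 were higher and Slc25a44 was lower. Among all tested genes, AM was above IM without overlap in 14.5% and below in 15.2%, and AW was above IW in 9.09% and below in 8.38%. In the fit with no minimum, where 5.74% of genes were called in this contrast, Slc25a35 (0.53, adjusted p = 0.0268) and Slc25a47 (0.51, 0.0469) were higher in AM than in IM. No setting called more than 5 carriers in this contrast, so not all of the 4 named above kept their calls in that fit. Over the settings, Slc25a3 kept its call in 12 of 12, Slc25a4 in 9 of 12, Slc25a39 in 8 of 12 and Slc25a34 in 6 of 11.

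Among inactive mice, genotype called none of the carriers, against 2.51% of all tested genes, and 5 carriers (21.7%) had an unadjusted p under 0.05, against 17.4% (limma). The nearest was Slc25a23 (-0.45, adjusted p = 0.0929), which was called without AW mouse 1. The counts of IM lay below those of IW without overlap for Slc25a3, Slc25a4 and Slc25a23 among others and above them for Slc25a37 and Slc25a39, against 12.7% and 13.1% of all tested genes. Among active mice none of the carriers was called either, against 0.207% of all tested genes, and 4 (17.4%) had an unadjusted p under 0.05, against 12.3%. Slc25a28 was nearest (0.25, adjusted p = 0.206). AM lay above AW without overlap for Slc25a28 and Slc25a39, against 7.73% of all tested genes.

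The comparison of inactive myostatin-reduced with active wild-type mice sets genotype against activity, with both factors different. It called 4 carriers, all under-expressed in IM, which was 17.4% of the carriers and 18.7% of all tested genes, 9.15% being lower in IM (limma). They were Slc25a3 (-0.63, adjusted p = 0.00179), Slc25a4 (-0.34, 0.00901), Slc25a34 (-2.35, 0.0149) and Slc25a22 (-0.94, 0.0415). Without AW mouse 1 the number called was 8, and without AW mouse 2 or 3 it was 2, Slc25a3 and Slc25a4. Slc25a22 lost its call without IW mouse 3, IM mouse 1 or 3, or AW mouse 2 or 3, with an adjusted p of up to 0.175 (limma). Slc25a34 lost it without IM mouse 3 or AW mouse 2 or 3, with an adjusted p of up to 0.0694 (limma). With a score of slow-fibre genes, described with the fibre markers, as a covariate, where 4.77% of all tested genes were called, neither was called, Slc25a22 at -0.37 (adjusted p = 0.456) and Slc25a34 at -1.13 (adjusted p = 0.172). With no minimum, where 14.4% of genes were called, Slc25a24 (-0.56, adjusted p = 0.0425), Slc25a35 (-0.50, 0.0161) and Slc25a47 (-0.47, 0.0372) were lower in IM as well. This comparison shares its mice with the contrasts above.

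Active myostatin-reduced mice differed from inactive wild-type mice in 1 carrier, against 2.97% of all tested genes, 1.23% being higher in AM (limma). Slc25a39 was higher in AM by 0.32 (SE 0.0685, adjusted p = 0.0275), and its 3 AM counts were all above the 3 IW counts. The call was lost without IW mouse 1, 2 or 3 or AM mouse 2 or 3 (adjusted p up to 0.104), and without AW mouse 1 Slc25a3 was called as well. Slc25a39 was highest in AM, and the counts of IM lay above those of IW and the counts of AM above those of AW.

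RNA of slow-fibre genes differed widely between mice within IW, AW and AM and less within IM, and the fibres themselves were not measured here. A slow-fibre score, the mean log2 deviation of 10 slow-fibre genes from their means over the mice, was 2.02, -2.05 and 0.08 in IW, -2.31, -1.44 and -1.70 in IM, -1.07, 2.37 and 2.56 in AW, and 1.12, 2.12 and -1.71 in AM. All 10 slow-fibre markers were in the table. Their summed values ran from 70.0 to 99.0 in IM and from 83.4 to 1306 in IW, 136 to 1748 in AW and 104 to 1273 in AM. For activity all 10 changes were positive, with a median of 1.90, and 1 of them, Casq2, was called, against 14.5% of all tested genes. An unadjusted p under 0.05 (limma) was reached by 4 of the 10, against 30.2% of all tested genes. The 4 mice with the highest scores, AW mice 2 and 3, AM mouse 2 and IW mouse 1, were also the 4 with the highest counts of Slc25a34 and of Slc25a22.

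With the score as a covariate beside the group means, the slope of Slc25a34 was 0.39 on the log2 scale per unit of score (SE 0.088, limma adjusted p = 0.0274). In this fit it was the only carrier called for the slope, against 5.3% of all tested genes, 2.59% with a positive slope. The slope was called in 6 of 12 fits with 1 mouse left out, and was lost without IW mouse 1 or 2, AW mouse 1, 2 or 3 or AM mouse 2 (adjusted p up to 0.201). Over all carriers the number called for the slope was then 0, and it was 2 without IM mouse 3 or AM mouse 3 and 3 without AM mouse 1. Slopes of Slc25a22 (0.19, adjusted p = 0.0522), Slc25a42 (0.07, 0.086) and Slc25a3 (0.06, 0.0711) were positive and not called, and that of Slc25a4 was 0.00 (0.993). In this fit activity called 2 carriers, against 5.56% of all tested genes, Slc25a3 (0.39, adjusted p = 0.00374) and Slc25a4 (0.22, 0.0237). The activity change of Slc25a34 was then 0.84 (adjusted p = 0.126), that of Slc25a22 0.31 (0.322) and that of Slc25a39 0.20 (0.0629).

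**Figure D5:**
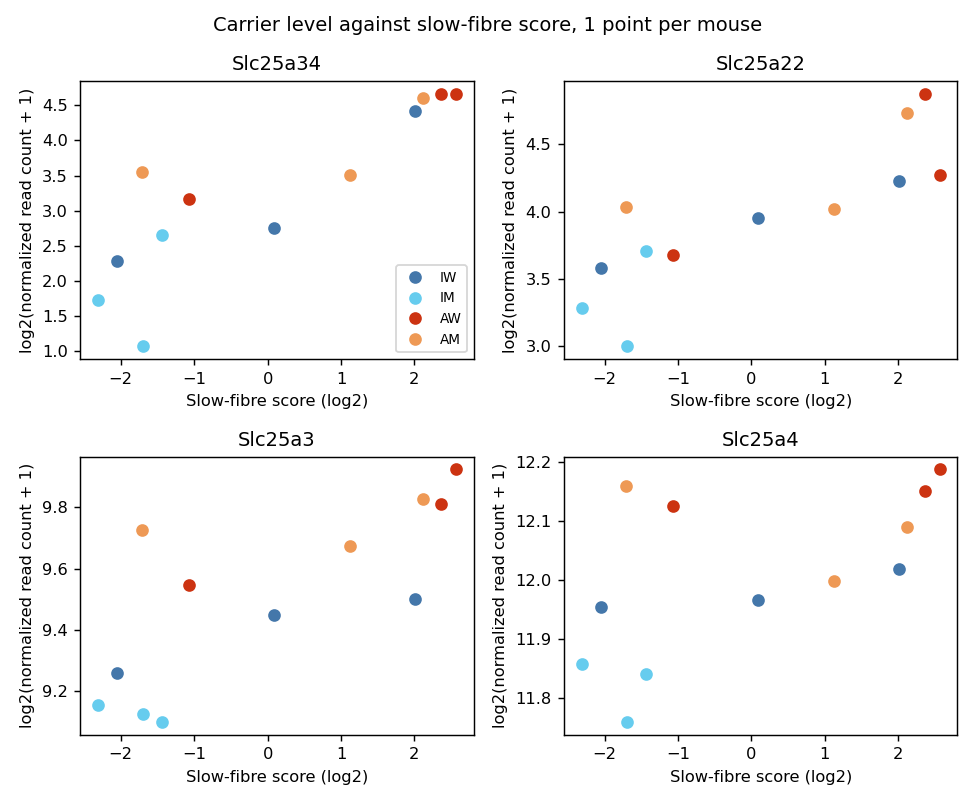
Level of 4 carriers, log2(normalized reads + 1), against the slow-fibre score of each of the 12 mice, coloured by group. Slc25a34 lies highest in the 4 mice with scores above 2, from 2.02 to 2.56, whereas the active mice of Slc25a4 lie high at low scores too.

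The carriers work beside ATP synthase, and 15 of its subunits and related genes were tested, mitochondrial creatine kinase Ckmt2 included. All 15 were called higher in active mice, against 7.99% of all tested genes, with a median change of 0.39 (limma). Atp5a1, a subunit of its catalytic head, changed by 0.39 (adjusted p = 0.00234) and Ckmt2 by 1.023 (adjusted p = 0.00113), beside 0.49 for Slc25a3 and 0.22 for Slc25a4. None of the 15 was called for genotype, against 5.78% of all tested genes. Of their genotype changes 14 were negative, with a median of -0.14 over the 15, beside 3750 negative changes among all 7247 tested genes. An unadjusted p under 0.05 (limma) was reached by 10 of the 15, beside 22.5% of all tested genes.

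Of 29 other genes of mitochondrial transport, 21 were in the table and 17 were tested. In active mice 6 were over-expressed and 1 was under-expressed, beside 7.99% and 6.51% of all tested genes, with a median change of 0.07. Letm1, which exchanges cations across the inner membrane, rose by 0.37 (limma adjusted p = 0.00179), and Brp44, a pyruvate carrier subunit, rose by 0.36 (adjusted p = 0.00179). The carrier relatives Mtch1 and Mtch2 rose by 0.32 (adjusted p = 0.00378) and 0.19 (adjusted p = 0.00965). Sfxn3, a sideroflexin, was the gene that fell (-0.43, adjusted p = 0.00943), with 24.3 to 29.8 in IW, 34.3 to 35.6 in IM, 17.0 to 21.9 in AW and 21.7 to 31.5 in AM. Sfxn3 was also the only gene of this list called for genotype, where it was higher in myostatin-reduced mice (0.37, adjusted p = 0.0356).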

How the data were processed

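Polyadenylated RNA of triceps brachii from 12 mice was sequenced as single-end reads. The authors mapped the reads with CASAVA (version not given in the sources used here) to mm9, counted them in RefSeq exons and summed them to genes. The values they deposited are normalized counts (unit: signal), scaled to an equal trimmed mean in each sample and with no division by length. The library kit does not mark strand.

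Values were tested as log2(value + 1) with limma 3.58.1 (R 4.3.3), which understates changes of low genes, for 7247 genes with a mean of at least 10. A mean per group was fitted to all 12 mice (eBayes with a trend), p-values were two-sided, and Benjamini-Hochberg adjustment ran over all genes tested with a threshold of 0.05. Low values were whole multiples of the value of 1 read (within 0.01 normalized reads) in 90.9% to 92.8% of values under 5 but in 73.2% to 75.7% between 20 and 50, against 19.2% to 26.2% by chance, so no count model was used. The floor of 3 reads covers counting error only, since amplified reads are not independent molecules. The fit was tested on simulated data.

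Values per mouse were given for carriers called in any contrast, for Slc25a5 and for the highest and lowest level in each role. Slc25a23, Slc25a25, Slc25a28 and Slc25a37 were added after their values were seen. The carriers, role lists and marker lists were chosen with earlier results of these data known, and the slow-fibre slope was added after the data were seen. Gene positions and lengths came from GENCODE on NCBIM37 (mm9), promoters from RefSeq on GRCm38.p6. Carriers not found in the promoter table were left out of the motif search. Groups and replicate numbers came from the sample titles. Results of 1 carrier are not reported here, although the counts of carriers include it.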

Additional observations from a re-analysis of the deposited data

How the results depend on the processing

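No direction reversed among the counts of carriers and the changes of called carriers. The number of carriers called was recomputed under 12 settings and with each mouse left out. For activity it was 8 with total sum scaling, 2 with the slow-fibre covariate and 2 to 7 with 1 mouse left out. In these fits 21%, 5.56% and 7.62% to 20.5% of all tested genes were called. For genotype the number of carriers was 1 with median, total sum, TMM or quantile scaling or the slow-fibre covariate, 2 with array weights, and 0 to 2 with 1 mouse left out. Of all tested genes, 4.39% to 8.47% were called for genotype in these settings and 2.48% to 7.99% with 1 mouse left out. Activity in wild-type mice gave 1 carrier with array weights and 0 to 1 with 1 mouse left out, and genotype in inactive mice gave 1 and 0 to 1 likewise. Activity in myostatin-reduced mice gave 2 without a variance trend, 1 with the slow-fibre covariate and 1 to 5 with 1 mouse left out. IM against AW gave 9 with total sum scaling, 7 with no minimum, 2 with a minimum of 50, 11 with array weights, 2 with the slow-fibre covariate and 2 to 8 with 1 mouse left out. AM against IW gave 2 with the slow-fibre covariate and 0 to 2 with 1 mouse left out. The interaction and genotype in active mice gave 0 under all of these. Under array weights 24% of all genes were called for activity, and total sum scaling lowered the share of higher among genes called for genotype from 61.8% to 28.8%. The minimum of 50 leaves fewer genes tested, and the cause of the other shifts was not tested.

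The number of carriers called for the slow-fibre slope, 1 in the reported fit, was 0 to 5 over 10 settings, with 0 after quantile normalization, 4 with total sum scaling, 5 with array weights and 2 with TMM scaling or a pseudocount of 5, and 0 to 3 with 1 mouse left out. With a minimum of 50, the 1 carrier called was Slc25a3. The slope of Slc25a34 was not called after quantile normalization (adjusted p = 0.0639), and its other settings gave 0.29 to 0.43. With a minimum of 50, Slc25a34 could not be fitted. TMM factors were computed from their published definition.

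With the replicate number as a block, activity in myostatin-reduced mice called 1 carrier, Slc25a3, and Slc25a5 and Slc25a22 were called for activity (adjusted p = 0.0468 and 0.046). The numbers do not pair the mice: deviations of same-numbered mice correlated between -0.60 and 0.48, and 5 of 12 mice correlated best with a mouse of their own number. Groups of 3 mice limit precision, and Slc25a34 and the 8 carriers below the minimum rest on few reads.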
